A study of Mus musculus with 15 samples.

Results

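The wide regions were the listed stretches of open chromatin of at least 1000 bp, measured end to end and inclusive, on the autosomes of the region set deposited for the Smarcd1 knockdown comparison. They numbered 869 of 44598 regions (1.95%) and held 6.99% of the summed length of all regions, while another 27 wide regions on chrX, chrY or chrM were left out. The 15 libraries came from ATAC-seq of 6DT1 cells, a metastatic mouse mammary tumor line, grown as untreated monolayers. The comparison took 5 groups of 3 libraries each, namely cells with an empty vector (EV), cells with a vector overexpressing Smarcd1 (OE), cells with a scrambled short hairpin RNA (Scr), and the Smarcd1 knockdown lines KD4 and KD6. Hairpin and expression constructs were introduced by lentivirus, and the methods state that knockdown cells were kept in puromycin and overexpressing cells in blasticidin, so EV and Scr differ in more than 1 respect. The labels do not say which hairpin sequence KD4 or KD6 carries, or whether a line is 1 clone. Regions carried positions on mm39 but no gene names, so neither the Smarcd1 gene nor markers of mammary cells could be looked up.

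Smarcd1 encodes a subunit of the SWI/SNF (BAF) complexes, which use ATP to slide or evict nucleosomes and so open DNA for transcription factors. ATAC-seq reads such openings, because the Tn5 transposase inserts sequencing adapters mainly into DNA that nucleosomes do not cover. A short accessible region is typically a single regulatory element, whereas a wide one can span a promoter with its flanks or several neighboring elements.

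Library totals ranged from 16176521 to 23703741 counts in regions. All 3 Scr libraries (16176521 to 19152961) held fewer counts than any EV library (21050527 to 23703741). All 869 wide regions passed the filter on low counts. The most similar pair of replicates still differed by 3.75 times the sampling noise (chi-square per region), so no library was repeated within a group. Libraries of different groups were not compared in this way. The labels speak of different passages seeded on different days in a passage about RNA extraction. Whether this holds for the ATAC-seq libraries is not stated, and the p-values below therefore rest on a spread among libraries that could be technical. The submitters' processing notes name an aligner that differs from the one in the methods, and it is uncertain which of them made these counts and if reads of another assay are among them.

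The wide regions were longer, higher and, per kilobase, moderately denser in counts than the others. Their lengths ran from 1000 to 4365 bp with a median of 1191 bp, against a median of 302 bp over all regions. By length, 722 measured under 1500 bp, 116 measured from 1500 to under 2000 bp and 31 measured at least 2000 bp. Their median level over the 15 libraries was 38.1 CPM (counts relative to library size, scaled by TMM, a factor per library that centers the bulk of regions), against 5.49 CPM for the 42188 narrower autosomal regions. Divided by length, the medians were 30.4 and 17.98 CPM per kb. A wide region had a median of 2 listed neighbors within 10 kb and a narrower one a median of 3. The sources used here do not say which libraries set the edges of the regions, so the lengths and the counts may come from the same libraries, and the part of this in the results was not tested.

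The Scr cells stood lowest in wide-region accessibility, and both knockdown lines stood above them. In the Scr libraries 6.67%, 6.70% and 6.60% of all counts lay in wide regions. In KD4 the share was 7.19%, 7.15% and 7.16%, and in KD6 it was 7.25%, 7.10% and 6.87%. No knockdown library overlapped the Scr libraries. The EV libraries held 7.62%, 7.10% and 7.02%, and the OE libraries 7.16%, 7.16% and 6.96%, so the 3 Scr libraries were the lowest of all 15, and the knockdown values lay within or beside the range of the EV and OE libraries. In bulk libraries of this kind, a larger fraction of cells with an open region and a more open region in each cell cannot be told apart.

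**Figure D1:**
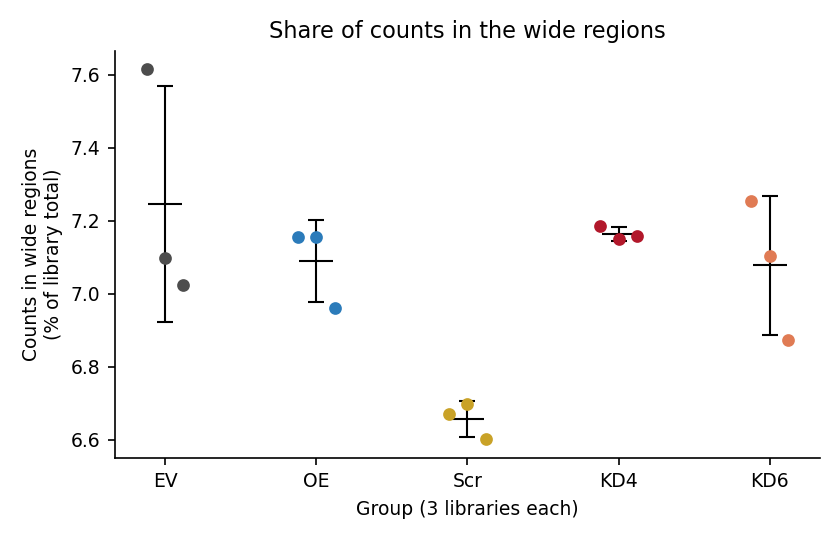
Percent of each library's counts that lay in the 869 wide regions, by group; points are libraries, the horizontal bar is the mean and the error bar the SD (n = 3), and the vertical axis does not start at 0. The 3 Scr libraries, from 6.60% to 6.70%, lie below the other 12, which run from 6.87% to 7.62%.

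The mean share was 7.12% ± 0.131 (SD, n = 6) in the knockdown libraries and 6.66% ± 0.0503 (SD, n = 3) in Scr, a difference of 0.464 percentage points (two-sided exact permutation test, p = 0.0238, the smallest that 6 against 3 libraries allow). Adjusted over the 5 comparisons of shares (Benjamini-Hochberg), the exact permutation p was 0.119. Taken alone, KD4 exceeded Scr by 0.508 and KD6 exceeded Scr by 0.420 percentage points, each with an exact permutation p of 0.1, which is the smallest that 3 against 3 can give. OE was 0.155 percentage points below EV (mean 7.09% ± 0.113 against 7.25% ± 0.322, SD, n = 3, exact permutation p = 0.6), which is less than the spread among the EV libraries. This small difference rested on EV replicate 1, for without it OE was 0.0298 percentage points above EV. Scr was 0.589 percentage points below EV (exact permutation p = 0.1). KD4, KD6 and EV are here all set against the same Scr libraries, so these differences are not independent. The difference between knockdown and Scr also depended on the region set. In the wide regions of the set deposited for the overexpression comparison it was -2.38 percentage points, and -0.0480 without the largest of those regions (exact permutation p = 0.167 and 0.357).

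Across single regions, the wide regions called between knockdown and Scr were all higher in knockdown. Under an edgeR quasi-likelihood test over all regions with a false discovery rate (FDR) of 0.05, 39 of the 869 were higher in knockdown (the mean of KD4 and KD6) than in Scr and 0 were lower. This is 4.49% of the wide regions, against a background of 0.255% higher and 0.0158% lower over all 44289 regions tested. At an unadjusted p under 0.05, 264 wide regions (30.4%) were higher and 0 lower, where the background was 5.27% higher and 2.98% lower. DESeq2 at FDR 0.05 called 70 wide regions higher and 0 lower, out of 255 higher and 22 lower over all regions. In 131 wide regions (15.1%) all 6 knockdown libraries exceeded all 3 Scr libraries, against 2.45% of all regions, and in 0 they all fell below Scr, against 1.44%. The median log2 fold change was 0.15 in wide regions and -0.01 over all regions tested, and 719 of the 869 (82.7%) were above 0. The lowest of them had a log2 fold change of -0.22.

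The number called was sensitive to single libraries. It was 7, 10 and 4 without Scr replicate 1, 2 and 3 in turn. Over all regions, the higher calls were then 14, 20 and 8, against 113 with every library. The count of wide regions was 14 and 23 without KD4 replicate 2 and 3, and 16, 13 and 59 without KD6 replicate 1, 2 and 3. Higher calls over all regions were then 43 and 74, and 49, 40 and 156. The median log2 fold change moved less, from 0.13 to 0.17, over all 9 omissions.

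Both lines contributed, KD4 with more calls. KD4 exceeded Scr in 49 wide regions and fell below it in 0 (background 0.431% higher and 0.145% lower). KD6 exceeded Scr in 16 and fell below it in 0 (background 0.142% and 0.00677%). Median log2 fold changes were 0.16 in KD4 and 0.14 in KD6. The lines share the Scr libraries, so their values are only set side by side: 601 wide regions were above 0 in both, 76 below 0 in both and 192 of opposite sign, and 9 were called higher in each line. Of the 39, 34 were also called in KD4 alone and 12 in KD6 alone. The KD4 count was 14, 26 and 16 without Scr replicate 1, 2 and 3, and 20 and 26 without KD4 replicate 2 and 3. Higher calls over all regions were then 38, 86 and 44, and 57 and 97, against 191 with every library. The KD6 count was 4 and 3 without Scr replicate 1 and 3, and 5 and 3 without KD6 replicate 1 and 2. Here the higher calls over all regions were 7 and 11, and 14 and 9, against 63.

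The change grew with the length of the region. From knockdown against Scr, the median log2 fold change was -0.03 in regions under 250 bp, -0.02 from 250 to under 500 bp, 0.04 from 500 to under 750 bp and 0.08 from 750 to under 1000 bp. Among wide regions it was 0.14 under 1500 bp, 0.21 from 1500 to under 2000 bp and 0.37 at 2000 bp and over. All 31 of the longest class were above 0, and 5 of them (16.1%) were called higher, as were 13 of 116 (11.2%) and 21 of 722 (2.91%) in the other two wide classes. Long regions also hold more counts, so the same medians were taken among regions of like level, between 18.8 and 75.1 CPM, the middle of the wide regions' range. They were -0.04, -0.03, 0.02, 0.04, 0.11, 0.25 and 0.37 from the shortest to the longest class, the last with 11 regions. This band was set on CPM and not on CPM per kb, so longer regions in it tend to be less dense. The part of density in the order by length was not tested. The limit of 1000 bp marked no step, since the 147 regions from 950 to under 1000 bp had a median of 0.12 with 1 called, and the 159 from 1000 to under 1050 bp a median of 0.10 with 2 called.

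**Figure D2:**
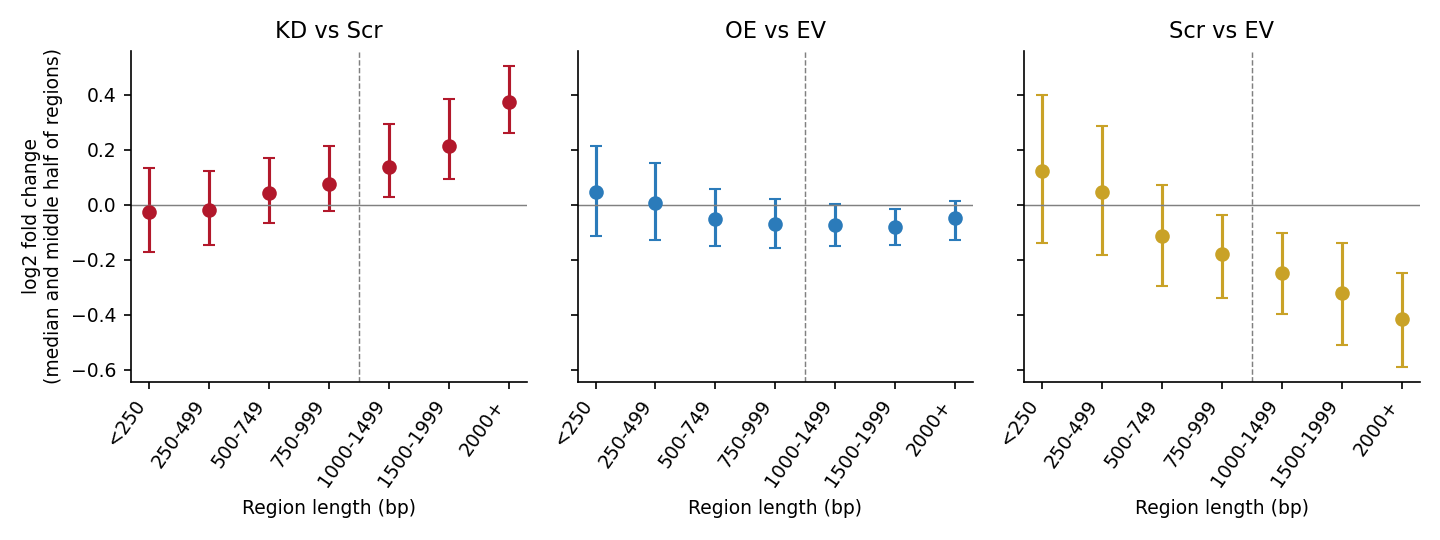
Log2 fold change by region length class on the autosomes for knockdown against Scr, OE against EV and Scr against EV; points are medians over regions, bars span the middle 50% of regions, and the dashed line marks 1000 bp. The median climbs to 0.37 for knockdown against Scr and falls to -0.42 for Scr against EV. For OE against EV it falls from 0.05 under 250 bp to -0.08 from 1500 to under 2000 bp. At 2000 bp and over it is -0.05 for OE against EV.

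The 39 regions higher in knockdown were a longer and much less dense subset of the wide regions. Their median length was 1478 bp against 1180 bp for the 830 not called, and their median density 9.73 against 31.8 CPM per kb. Of the 39, 8 averaged under 5 CPM, as did 35 of the 869. Fitted log2 fold changes ran from 0.56 to 1.65 with a median of 0.85, so 37 changed by over 1.5-fold and 13 by over 2-fold. In 38 of the 39, each of the 6 knockdown libraries exceeded each Scr library, compared with 2.45% of all regions. The 39 were called on these same libraries, so this count is largely fixed by the call.

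**Figure D3:**
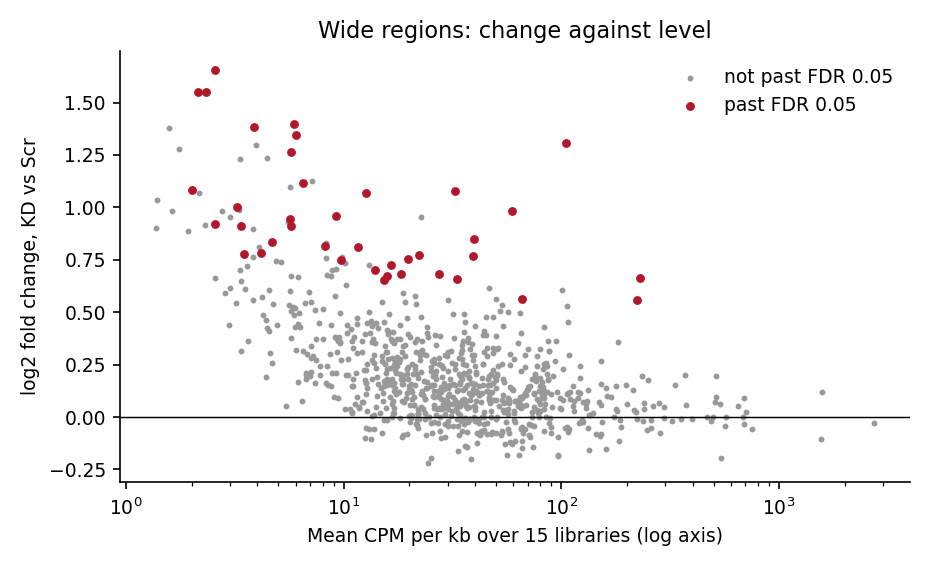
Log2 fold change of knockdown against Scr for each of the 869 wide regions against its mean CPM per kb over 15 libraries (log axis); red points are the 39 at FDR 0.05 under edgeR. The called regions have a median of 9.73 CPM per kb, and the densest regions lie near 0.

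The 10 wide regions with the smallest p for knockdown against Scr illustrate 2 kinds of profile. In the first kind, Scr stood below every other group, and knockdown stood near EV and OE. The region chr10:18731412-18732812 had 71.8, 63.6 and 53.3 CPM in Scr, 171, 157 and 176 in KD4, and 172, 132 and 127 in KD6. In EV it had 223, 182 and 173 CPM, and in OE 173, 163 and 164. The Scr libraries did not overlap any other group, and the log2 fold change of knockdown against Scr was 1.31 (standard error 0.134, edgeR FDR = 0.000315). Scr was also below EV here, with a log2 fold change of -1.60 (standard error 0.157, edgeR FDR = 1.1e-05).

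Another 4 of the 10 had the same order. The region chr17:87562106-87563453 held 44.9, 45.2 and 39.5 CPM in Scr, 85.3, 80.2 and 86.4 in KD4, 94.3, 85.0 and 80.8 in KD6, and from 81.8 to 104 in the 6 EV and OE libraries. At chr1:191353291-191354722 the Scr libraries had 21.6, 27.4 and 21.5 CPM, KD4 had 55.8, 55.2 and 47.6, and KD6 had 53.5, 50.5 and 35.8, with EV and OE libraries between 51.9 and 63.5. These regions changed by log2 0.98 and 1.08 (standard errors 0.110 and 0.144, edgeR FDR = 0.000789 and 0.00358), and Scr lay below all other libraries in both. A larger region, chr4:126032624-126034814, had 49.5, 58.2 and 52.3 CPM in Scr, 102, 101 and 91.2 in KD4, and 92.3, 89.8 and 70.8 in KD6, and EV and OE libraries ranged from 80.2 to 125. At the faint region chr4:57061832-57063251, levels were 1.67, 0.938 and 1.12 CPM in Scr, 4.28, 3.63 and 4.30 in KD4, 3.89, 3.30 and 3.91 in KD6, and 2.94 to 5.47 in EV and OE. Their log2 fold changes were 0.77 and 1.65 (standard errors 0.119 and 0.222, edgeR FDR = 0.0114 and 0.00358). In all 5 regions of this kind Scr was lower than EV (edgeR FDR from 1.1e-05 to 0.00418).

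In the second kind, the knockdown libraries stood above EV and OE as well as Scr. A stretch of chromosome 6 held 3 of the 39 side by side. Its widest member, chr6:38669041-38672419, the third longest of all wide regions, had 11.6, 10.4 and 10.3 CPM in Scr, 39.0, 28.9 and 28.7 in KD4, and 21.2, 27.5 and 25.9 in KD6. In EV it had 16.1, 17.4 and 13.7 CPM and in OE 15.5, 14.97 and 17.8, so both knockdown lines lay above all other libraries. Its neighbor chr6:38665830-38668011 had 7.85, 7.45 and 6.83 CPM in Scr, 25.6, 19.02 and 17.8 in KD4, 14.6, 19.3 and 16.6 in KD6, and 8.62 to 12.1 in EV and OE. The log2 fold changes were 1.40 and 1.34 (standard errors 0.144 and 0.154, edgeR FDR = 0.000315 and 0.000905), and the third member of the stretch, chr6:38672600-38674291, had 1.27 (edgeR FDR = 0.0149).

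The other 3 of the 10 had this profile. At chr6:38794930-38796228 there were 13.6, 9.12 and 8.81 CPM in Scr, 30.8, 22.0 and 23.1 in KD4, and 19.3, 18.8 and 19.04 in KD6, against 12.6 to 15.9 in EV and OE. The region chr6:99602338-99604010 had 5.93, 8.13 and 5.71 CPM in Scr, 17.6, 17.96 and 18.7 in KD4, 12.1, 10.7 and 11.2 in KD6, and 8.07 to 10.1 in EV and OE. The KD4 libraries all lay above the KD6 libraries at both, but the difference between the lines did not pass the threshold (edgeR FDR = 0.664 and 0.0987). At the faint region chr13:100633865-100635422, Scr had 0.865, 2.60 and 1.71 CPM, KD4 had 4.79, 6.71 and 5.24, KD6 had 4.54, 5.02 and 4.65, and EV and OE libraries ranged from 2.17 to 3.77. The log2 fold changes against Scr were 1.07, 1.12 and 1.55 (standard errors 0.159, 0.145 and 0.251, edgeR FDR = 0.0103, 0.00307 and 0.0143). In the 5 regions of the second kind Scr was lower than EV by log2 0.46 to 0.97, with edgeR FDR from 0.0526 to 0.126, so that difference was not called.

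**Figure D4:**
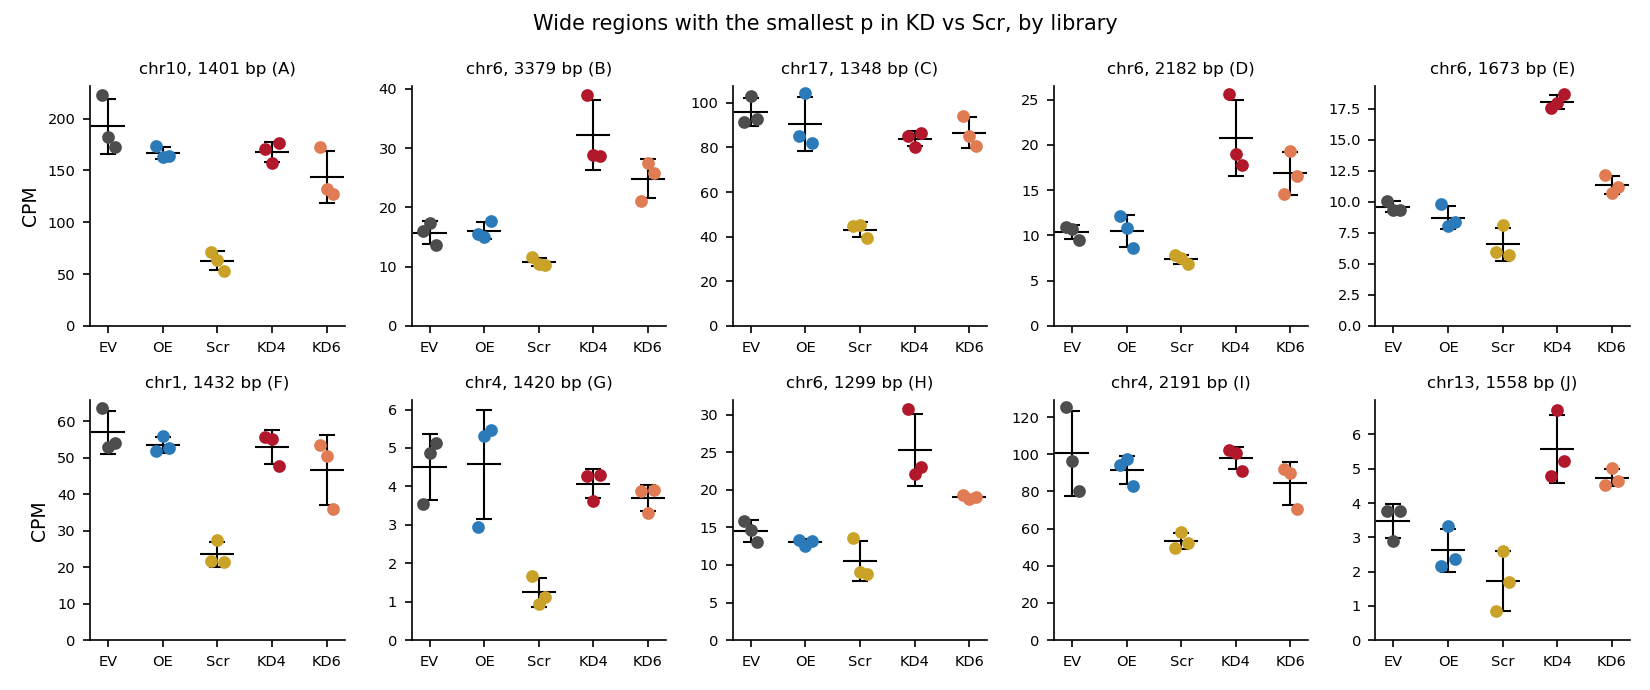
CPM in each library of the 10 wide regions with the smallest p for knockdown against Scr (panels A to J, titled by chromosome and length); points are libraries, bars are the mean and SD (n = 3). In A, C, F, G and I the Scr libraries lie below every other library. In B, D, E, H and J the knockdown libraries lie above all EV, OE and Scr libraries. Scr lies below every other library in B and D as well, and overlaps OE in E, H and J.

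Some calls among the 10 were lost when a Scr library was left out. Leaving out Scr replicate 1, 2 or 3 raised the edgeR FDR of 3, 1 and 6 of them above 0.05. Higher calls over all regions fell as well, from 113 to 14, 20 and 8. The fold changes of the 10 stayed above 0 in each of the 18 alternative analyses run on them. The lowest log2 value was 0.713, at chr4:126032624-126034814. The regions at chr10:18731412-18732812, chr17:87562106-87563453, chr6:38669041-38672419 and chr6:38665830-38668011 kept an edgeR FDR below 0.05 in all 18.

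Over the wide regions as a whole, low Scr values were common. The mean of Scr was the lowest of the 5 groups in 531 of 869 (61.1%), compared with 23.2% of all regions, and EV had the highest mean in 436, compared with 24.5% of all regions. Compared directly, 116 wide regions were lower and 3 higher in Scr than in EV (edgeR FDR 0.05), where the background was 2.2% lower and 2.19% higher. This comparison was chosen after seeing the data. Every Scr library also held fewer counts in total than any EV library, and the part of depth in it was not tested. The Scr libraries all lay below the EV libraries in 401 wide regions (46.1%, background 13.1%) and all above in 11 (1.27%, background 13%). The median log2 fold change of Scr against EV was -0.26 in wide regions and 0.02 over all regions, and it fell with length to -0.42 at 2000 bp and over. Without EV replicate 1 or 2 the number called was 59 or 44, and without Scr replicate 1 or 3 it was 34 or 45, in place of 119. Without TMM it was 67.

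The 39 regions were called against the same Scr libraries, so low Scr values among them are in part fixed by that choice, and their values for Scr against EV are given only as a description. The log2 fold change of Scr against EV had a median of -0.66 in them, and 20 were lower in Scr at FDR 0.05 under edgeR. The mean of the knockdown libraries exceeded the EV mean in 26 of the 39 and was at or below it in 13. Whether the Scr line, its scrambled hairpin or the knockdown itself sets the difference between knockdown and Scr cannot be told apart with 1 scrambled line.

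Library by library, the same order held with some overlap. Against the mean of Scr, the median of the wide regions on the log2(CPM + 0.5) scale was 0.18, 0.16 and 0.15 in the KD4 libraries. In KD6 it was 0.24, 0.16 and 0.03, so KD6 replicate 3 lay close to Scr. It was 0.41, 0.23 and 0.15 in EV and 0.19, 0.25 and 0.12 in OE, and EV replicate 1, which also had the smallest TMM factor (0.883), stood highest. The narrower regions had medians between -0.02 and 0.01 in all 15 libraries, which the scaling largely sets, since they are the bulk that TMM centers. The part of the library scaling in these differences was not tested beyond the alternative scalings, under which 38 to 42 wide regions were called for knockdown against Scr.

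Between OE and EV no wide region was called. None passed FDR 0.05 in either direction under edgeR, as in the whole table (0 higher and 0 lower of 44011, a background of 0% in each direction). DESeq2 also called 0 wide regions. At an unadjusted p under 0.05, 6 were higher and 26 lower, that is 0.69% and 2.99%, against 3.34% and 3.26% over all regions. All OE libraries exceeded all EV libraries in 19 wide regions (2.19%, background 6.18%) and lay below them in 70 (8.06%, background 5.17%). The median log2 fold change was -0.07 in wide regions and 0.00 over all regions. It was -0.01 without EV replicate 1 and -0.00 without TMM. By length class, the median for OE against EV fell from 0.05 under 250 bp to -0.08 from 1500 to under 2000 bp. At 2000 bp and over it was -0.05, so some change with length was seen here too, without calls. In the 39 regions higher in knockdown, the median for OE against EV was -0.08, with 10 above 0.

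The longest and the densest wide regions did not pass the threshold for knockdown against Scr, apart from the chromosome 6 region above. The longest, chr19:8988006-8992370 (4365 bp), had 1693, 1574 and 1601 CPM in Scr, 1832, 1685 and 1665 in KD4, and 1668, 1637 and 1637 in KD6, while EV and OE libraries ran from 1389.6 to 1951. The groups overlapped, and the log2 fold change was 0.06 (standard error 0.104, edgeR FDR = 0.927). The next in length, chr10:81233440-81236855 (3416 bp), had 99.6, 85.0 and 129 CPM in Scr, 252, 132 and 96.3 in KD4, 135, 193 and 153 in KD6, 182, 145 and 156 in EV, and 195, 193 and 224 in OE. Here KD4 was widely scattered, and the log2 fold change of 0.61 had a standard error of 0.227 (edgeR FDR = 0.452).

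Per kilobase, the highest wide regions were chr1:60743167-60744174, chr9:123518257-123519260 and chr1:135159899-135160923. Their mean levels in Scr, KD4 and KD6 were 2663 ± 354, 2522 ± 281 and 2697 ± 411 CPM for the first (SD, n = 3 in each group). They were 1359.5 ± 338, 1526 ± 343 and 1432 ± 200.3 CPM for the second, and 1609 ± 286, 1421 ± 75.8 and 1573 ± 131 CPM for the third. The knockdown groups lay within 1 SD of Scr at each, with log2 fold changes of -0.03, 0.12 and -0.10 (edgeR FDR = 0.974, 0.900 and 0.877). The sign of all 3 turned when single libraries were left out.

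The knockdown lines differed from each other at 10 wide regions, 6 higher and 4 lower in KD6 than in KD4 (edgeR FDR 0.05, background 0.151% higher and 0.0723% lower). The count was 6 and 3 without KD4 replicate 1 and 2, and 5 and 3 without KD6 replicate 1 and 2. Over all regions, 67 were higher and 32 lower in KD6 with every library. Without KD4 replicate 1 these were 47 and 27, and without KD4 replicate 2 they were 17 and 7. Without KD6 replicate 1 they were 39 and 17, and without KD6 replicate 2 they were 16 and 1. The median over wide regions was -0.01, so neither line was higher throughout. In the 3 with the smallest p that were higher in KD6, KD4 stood near Scr. The region chr16:10099695-10102282 had 26.8, 31.3 and 23.7 CPM in Scr, 19.8, 28.5 and 22.6 in KD4, and 64.4, 68.8 and 52.9 in KD6, with 38.6 to 61.8 in EV and OE. KD6 lay above both other lines of this comparison, by log2 1.39 over KD4 (standard error 0.160, edgeR FDR = 0.00203) and 1.19 over Scr (edgeR FDR = 0.00416).

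At chr2:76525763-76526815 there were 15.8, 17.3 and 12.5 CPM in Scr, 10.7, 11.6 and 12.7 in KD4, and 32.2, 33.1 and 24.8 in KD6, and EV and OE ranged from 28.0 to 38.7. Another region of chromosome 2, chr2:75469482-75470835, had 57.0, 41.6 and 53.02 CPM in Scr, 42.4, 41.5 and 39.8 in KD4, and 71.6, 81.0 and 87.1 in KD6, with 55.6 to 69.1 in EV and OE. KD6 and KD4 did not overlap at either, and differed by log2 1.36 and 0.95 (standard errors 0.160 and 0.138, edgeR FDR = 0.00203 and 0.00592). At the first of them KD6 was near EV and OE, and at the second it was above them.

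In the other direction, KD4 stood above all other libraries at the named regions of chr8 and chr19, but not at that of chr2. At chr8:36145152-36146533, which was also one of the 39, levels were 5.19, 4.90 and 5.13 CPM in Scr, 14.4, 11.3 and 12.5 in KD4, 6.67, 5.63 and 5.66 in KD6, and 1.78 to 3.09 in EV and OE. This was the region of the 39 in which Scr exceeded EV, and KD4 exceeded Scr by log2 1.32 (edgeR FDR = 0.00167), where KD6 had a log2 fold change of 0.24 (edgeR FDR = 0.948). The region chr19:42256740-42257909 had 11.1, 10.3 and 13.4 CPM in Scr, 18.02, 20.1 and 17.4 in KD4, 9.03, 10.5 and 9.78 in KD6, and 5.93 to 7.93 in EV and OE. At chr2:26027040-26028117, Scr had 30.0, 38.8 and 37.6 CPM, KD4 had 50.3, 51.4 and 46.2, KD6 had 29.1, 32.6 and 30.2, and EV and OE ran from 44.5 to 57.5. There KD4 lay within the range of EV and OE and KD6 below it, and KD4 against Scr was not called (edgeR FDR = 0.141). KD6 and KD4 did not overlap in any of the 3, with log2 differences of -1.08, -0.92 and -0.69 (standard errors 0.159, 0.149 and 0.132, edgeR FDR = 0.00642, 0.0119 and 0.0389).

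**Figure D5:**
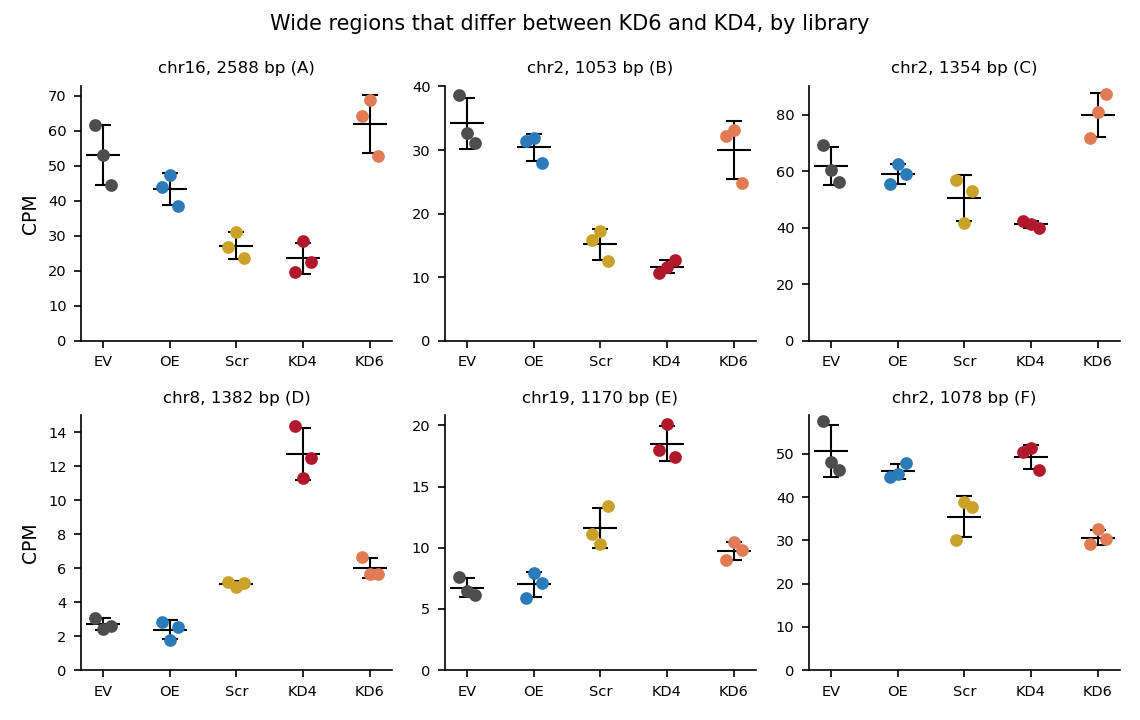
CPM in each library of the 6 wide regions named for KD6 against KD4, with those higher in KD6 in the upper panels (A to C) and those lower in the lower panels (D to F); points are libraries, bars are the mean and SD (n = 3). The KD4 and KD6 libraries do not overlap in any panel, with log2 differences from -1.08 to 1.39.

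The 39 regions higher in knockdown were spread over 16 chromosomes, with 6 on chromosome 6 and 4 on chromosome 4. Of them, 7 had another of the 39 within 50 kb, in 3 groups. These were the 3 regions of chromosome 6, chr19:17096158-17098438 with chr19:17100206-17101897, and chr14:31750781-31751979 with chr14:31780871-31782323. Another wide region lay within 50 kb of 12 of the 39 (30.8%) and of 160 of the 869 (18.4%).

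The narrower regions beside the 39 were mostly above 0 as well. Within 10 kb of the 39 lay 57 narrower regions, of which 52 were above 0 and 11 were higher at FDR 0.05 under edgeR, with a median log2 fold change of 0.72. Within 10 kb of the wide regions that were not called lay 2161 narrower regions, with a median of 0.08, 1453 above 0 and 2 called higher. Over all 41897 narrower autosomal regions tested the median was -0.01, and 73 (0.174%) were called higher. Neighbors share the libraries, so they are no separate replicates.

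Wide regions were seldom wide in the other deposited set, that of the overexpression comparison, which lists regions of its own with counts for the same 15 libraries. Of the 869, 137 overlapped none of its regions, 371 overlapped 1 and 361 overlapped 2 or more, and the median share of their length covered was 42.7%. At least 1 overlap was found for 84.2% of the wide and 59.3% of the narrower autosomal regions. Only 129 autosomal regions of that set reached 1000 bp, and 75 of the 869 overlapped one of these.

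The change followed this coverage. The 137 wide regions with no counterpart had a median log2 fold change of 0.46 for knockdown against Scr, and 19 (13.9%) were called higher. Of the 359 covered in part but under 50%, 18 (5.01%) were called, with a median of 0.18. In the 373 covered by at least 50% the median was 0.08 and 2 (0.536%) were called. Level changed along with coverage, with medians of 7.66, 22.6 and 55.3 CPM per kb, and its part in this was not tested. The same order for Scr against EV was -0.42, -0.29 and -0.19. Narrower regions without a counterpart had a median of 0.05 and those covered by at least 50% a median of -0.05 for knockdown against Scr. Regions without a counterpart were listed for the knockdown comparison alone, possibly through the libraries compared here. The part of that listing in their change was not tested.

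The other set's regions that overlapped a wide region, in part or in whole, were also counted as pieces of their own. A piece could therefore extend beyond the wide region. The 33 pieces overlapped 20 of the 39 regions and recount the same libraries. Their direction was therefore largely fixed by the call, and their median log2 fold change of 0.81 is a description. Over that whole set, 28 of 37868 regions were higher and 34 lower for knockdown against Scr under edgeR. The 1122 pieces overlapping the wide regions that were not called had a median of 0.19, with 1020 above 0 and 1 called higher. In contrast, the 129 wide regions of that set had a median of 0.01, 69 were above 0 and 0 were called. The 75 of the 869 that overlapped them had a median of -0.01 and 0 calls, against 0.16 for the other 794. The shift was largest in wide regions that the other set covered least, smaller in those it covered by at least 50%, and not seen in the regions of at least 1000 bp of that set.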

How the data were processed

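ATAC-seq was done on 15 libraries, 3 for each group, grouped by sample titles. Per the methods, the authors used Partek Flow, with Bowtie2 for alignment to mm39 and MACS for peaks. The submitters' notes instead list STAR 2.7.8a, also with mm39. The merging of peaks into 1 set per comparison is not described in the sources used. The deposited values were expected counts per region, not normalized (95.1% whole numbers, 0 zeros), and were rounded. The planned design had assumed whole counts, and the same test was used. Another 15 columns in each table matched no sample and were not used.

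Wide regions were taken from the first column of the knockdown table. All regions were fitted with edgeR 4.0.16 in R 4.3.3 (quasi-likelihood test, TMM, the tool's filter on low counts), with Scr, KD4 and KD6 in 1 fit and the other pairs in fits of their own, and Benjamini-Hochberg FDR 0.05 over all regions tested. Standard errors were the log2 fold change divided by the square root of the F statistic. CPM were scaled by TMM over 15 libraries. For shares of counts, exact permutation tests over libraries were used, two-sided (scipy 1.17.1). The code was checked on simulated data. Alternatives covered scaling, filters, DESeq2 1.42.0 in place of edgeR, other length and FDR limits, a replicate block, each library left out, chrM with the 20 largest regions left out, and, chosen after seeing the data, lowess offsets, the overexpression table and Scr against EV.

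Named regions were the 10 with the smallest p per direction past FDR 0.05 for knockdown against Scr, the 3 longest, the 3 with the most CPM per kb, up to 4 past FDR 0.05 for OE against EV (none qualified), and the 3 with the smallest p per direction for KD6 against KD4. Beyond this rule, chr6:38672600-38674291 and the neighboring pairs on chromosomes 14 and 19 were named after their values were seen. The regions, lists and comparisons were chosen with earlier results of these data known. No annotation or sequence of mm39 was used, so gene lists, cell type markers, gene positions and base composition were not analysed here.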

Additional observations from a re-analysis of the deposited data

Results flagged for a closer look

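A direct test of KD6 against KD4 (edgeR, FDR 0.05 over all regions tested, 3 libraries each) called 10 wide regions, of which those 3 per direction with the smallest p are given here because the lines differed at them. The log2 difference was 1.39 at chr16:10099695-10102282, 1.36 at chr2:76525763-76526815 and 0.95 at chr2:75469482-75470835, all higher in KD6. It was -1.08 at chr8:36145152-36146533, -0.92 at chr19:42256740-42257909 and -0.69 at chr2:26027040-26028117, all lower in KD6. The first 2 named stayed past the threshold in every alternative run with these regions, including each omitted library. At chr2:75469482-75470835 the FDR was 0.0524 without KD4 replicate 2 and 0.0549 without KD6 replicate 2. At chr8:36145152-36146533 it was 0.0679 without KD6 replicate 2. At chr19:42256740-42257909 it was 0.0975 without KD4 replicate 2, 0.0656 without KD6 replicate 1 and 0.0679 without KD6 replicate 2. The call at chr2:26027040-26028117 was lost on leaving out any 1 of the 6 knockdown libraries, with FDR from 0.0715 to 0.222.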

How the results depend on the processing

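The median log2 fold change of wide regions for knockdown against Scr stayed above 0 under every scaling, filter, length limit, region table and omitted library tried. The number of calls varied, and the share of counts changed direction in the overexpression table. With main values of 39 calls for knockdown, 49 for KD4, 16 for KD6, 10 for KD6 against KD4 and 119 for Scr against EV, FDR 0.01 gave 7, 12, 6, 4 and 34, and FDR 0.1 gave 63, 78, 29, 18 and 199. A length of at least 1500 bp gave 18, 20, 7, 1 and 33. A length of at least 750 bp gave 75 for KD4, 25 for KD6, 20 for KD6 against KD4 and 201 for Scr against EV. DESeq2 gave 70, 88, 44 and 24 for the first 4. The wide regions of the overexpression table gave 0 for these 4 and 5 for Scr against EV, where no TMM gave 67. With 1 library left out, calls ranged from 4 to 59 for knockdown, 14 to 37 for KD4, 3 to 23 for KD6, 3 to 8 for KD6 against KD4 and 34 to 137 for Scr against EV. Over all regions, the higher calls for knockdown then ranged from 8 to 156, against 113 with every library. The cause of these changes was not tested, beyond fewer regions or libraries entering.

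The median log2 fold change for knockdown against Scr was 0.26 at 1500 bp and over and 0.0115 in the overexpression table, against 0.15. For OE against EV it was -0.0033 with no TMM, -0.03 with lowess offsets, -0.05 in the overexpression table and -0.115 to -0.0145 with 1 library left out, against -0.07. For Scr against EV it was -0.21 at 750 bp and over, -0.34 at 1500 bp and over, -0.16 with no TMM, -0.20 with upper-quartile scaling, -0.17 with lowess offsets, -0.16 in the overexpression table and -0.33 to -0.19 with 1 library left out, against -0.26. With no TMM the median of all regions for Scr against EV moved to 0.12, and calls over all regions went from 958 higher and 963 lower to 1075 higher and 436 lower.

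The share of counts for knockdown minus Scr, 0.464 percentage points, was 0.718 at 750 bp and over, 0.169 at 1500 bp and over, and 0.436 to 0.513 with 1 library left out (exact permutation p = 0.0714 without any Scr library, the smallest possible there), and it was -2.38 in the overexpression table and -0.0480 there without its largest region, which takes 3.64% to 10.8% of a library. For OE minus EV, -0.155 percentage points, it was -0.275 at 750 bp and over, -0.0160 at 1500 bp and over, 1.96 and 0.0371 in that table, and -0.266 to 0.0298 with 1 library left out, the last without EV replicate 1. Among the densest regions, the log2 fold change with 1 library left out ran from -0.108 to 0.0803 at chr1:60743167-60744174 (above 0 without Scr replicate 2, KD4 replicate 1 or KD6 replicate 3), from -0.0520 to 0.308 at chr9:123518257-123519260 (below 0 without Scr replicate 3) and from -0.202 to 0.0422 at chr1:135159899-135160923 (above 0 without Scr replicate 1). None of these was called.

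Whether replicate numbers pair the libraries was not settled, since only same-numbered libraries were correlated. Deviations from group means correlated from -0.276 to 0.353 between same-numbered libraries of Scr, KD4 and KD6, and from -0.043 to 0.303 between EV and OE. With a replicate block, 33 wide regions were called for knockdown, 50 for KD4, 20 for KD6, 11 for KD6 against KD4 and 132 for Scr against EV. The exact permutation p of the share of counts, 0.464 percentage points, was 0.25 within blocks, the smallest 3 blocks allow, and chr2:26027040-26028117 had an edgeR FDR of 0.0523. Of the 869 wide regions, 35 averaged under 5 CPM, and 8 of these 35 were among the 39 called for knockdown. The part of level in the calls was not tested.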
